A study of Rattus norvegicus with 12 samples.

Results

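Fatty acid oxidation, the breakdown of fatty acids in mitochondria and peroxisomes, was followed through 33 genes in epididymal adipose tissue of the rat, the fat pad that lies along the epididymis. A gene was counted as present on the array where the platform annotation gave its symbol to a probe. This held for 32 of the 33 genes, among 13337 genes with a symbol and a probe, and 30 of the 32 were bright enough to be tested, among 8583 genes with a tested probe. The genes fall into acyl-CoA synthetases (5), the carnitine system (6), mitochondrial β-oxidation (13), electron transfer flavoprotein (3) and peroxisomal genes (6).

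A fatty acid is first activated to an acyl-CoA by an acyl-CoA synthetase. Carnitine palmitoyltransferases and the carnitine-acylcarnitine carrier bring the long chains into the mitochondrion, where dehydrogenation, hydration, a further dehydrogenation and thiolysis shorten the chain turn by turn, and electron transfer flavoprotein passes electrons on to the respiratory chain. Peroxisomes shorten very long and branched chains with oxidases of their own. White adipose tissue mainly stores and releases fatty acids, and many of these genes are known targets of the peroxisome proliferator-activated receptors (PPARs), which bind DNA together with retinoid X receptors.

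RNA from 12 male Sprague-Dawley rats aged 40 days was measured, each on its own array of a single Illumina RatRef-12 BeadChip. In 6 rats, labelled food removed, food had been taken away 6 h before sampling, and the other 6, labelled ad lib, had kept free access to food. The study's methods place the removal at another hour of the day and give a somewhat longer time without food. Median raw signal per array was 105 to 139.6 in the group labelled food removed and 91.1 to 137 in the group labelled ad lib, and 51.25 to 59.6% of the 22523 probes were detected per array at a detection p under 0.05. Signals are given as log2 of background-corrected, quantile-normalized intensity, and limma's moderated test was run on the 12196 probes that 6 or more arrays detected, with Benjamini-Hochberg adjustment over all of them. A gene is called lower or higher where the adjusted p is under 0.05, and a fold change is always the group labelled food removed against the group labelled ad lib. The p-values measure the spread between rats on 1 chip.

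The groups are named by their labels throughout because the direction of the difference opposes the one that the study describes. Pdk4 and Angptl4, genes that the study lists as increased after food removal, were both lower in the arrays labelled food removed. Pdk4, a kinase that shuts off pyruvate dehydrogenase, lay between 6.17 and 7.93 (median 6.67) in the arrays labelled food removed and between 9.27 and 10.34 (median 9.72) in those labelled ad lib, a log2 fold change of -2.95 (SE 0.27, adjusted p = 0.000236 from limma). Angptl4, an inhibitor of lipoprotein lipase, had a log2 fold change of -2.08 (SE 0.27, adjusted p = 0.00111 from limma), again with no overlap between the groups. Each direction given for the oxidation genes follows the labels and would turn with them.

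Food removed replicate 3 stood apart before any oxidation gene was considered. Its mean over 13 epididymal epithelium markers was 12.36, against 6.12 to 7.29 on the other 5 arrays of its group and 6.10 to 6.85 on the arrays labelled ad lib, and its mean over 8 adipocyte markers was the lowest of all, 12.19 against 12.58 to 13.05. It was the lowest of its group for 20 of the 30 tested oxidation genes and the highest for 3. The same count was not made over all tested probes, so it is not read as a trait of these genes. Results are therefore given with and without food removed replicate 3 for the called genes and for Acsl4, Cpt1a, Echs1, Crat and Acaa1a. Most other fold changes include it. Leaving it out changed the log2 fold change from -0.50 to -0.41 for Acads and from -0.90 to -0.70 for Acad10. It changed from -0.48 to -0.37 for Prkaa1, from -1.54 to -1.38 for Rxrg and from -2.08 to -1.85 for Angptl4. Acsl4 and Cpt1a became more negative. Single epididymal markers were raised on other arrays too. Lcn5 was 14.49 on food removed replicate 3, 11.2 on food removed replicate 5 and on ad lib replicate 6, and 8.96 on food removed replicate 4. It was at most 6.28 on the rest. Markers of capillary endothelium tended to be lower in the arrays labelled food removed. Their mean over 8 genes was 8.57 to 9.57 there and 9.49 to 9.98 in the arrays labelled ad lib. The lowest value was that of food removed replicate 3, and without it the range began at 9.16. This list includes Gpihbp1, whose message the study measured by real-time PCR and describes as rising when food is withdrawn. The study states that its array did not represent this gene, whereas the platform annotation used here gives its symbol to a probe. Gpihbp1 lay between 9.72 and 10.90 in the arrays labelled food removed and between 10.81 and 11.56 in those labelled ad lib. A mean without Gpihbp1 was not calculated. Macrophage markers overlapped, at 9.81 to 10.75 and 10.19 to 10.70, and the part of any cell type in the results was not tested. In pieces of tissue, fewer cells of a type and less RNA per cell cannot be told apart. Of 6 measured markers of brown or beige adipocytes, 3 were detected on every array, and the list's mean lay between 6.20 and 7.08 over the 12 arrays. That mean hides a wide range of Ucp1, from 5.135 on food removed replicate 1 to 8.785 on ad lib replicate 1, with overlapping groups. The others detected on every array were Cidea (10.931 to 11.738) and Dio2 (5.157 to 6.025).

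Of the 30 tested genes 3 were lower in the arrays labelled food removed and 0 were higher. Over all 12196 tested probes, 1.42% were lower and 1.05% were higher (2.47% either way). The 3 genes were Slc25a20, the carrier that exchanges acylcarnitine for carnitine across the inner mitochondrial membrane, with a log2 fold change of -0.82, Hadha, the α-subunit of the mitochondrial trifunctional protein, with -0.71, and Acox3, a peroxisomal acyl-CoA oxidase of branched chains, with -0.72. Without food removed replicate 3 the 4 genes called lower were Slc25a20, Hadha, Acsl4 and Cpt1a, while Acox3 missed the threshold (adjusted p = 0.0714 from limma). The other 27 tested genes did not pass. At an unadjusted p under 0.05, 13 genes had a lower and 1 (Acsl3) a higher signal, where 9.4% and 6.51% of all probes did. The groups did not overlap for 4 genes, Slc25a20, Hadha, Acox3 and Echs1, all with lower signals in the arrays labelled food removed, and this held for 1.43% of all probes in that direction and 1.07% in the other.

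Signs were shared more widely than calls. The log2 fold change was below 0 for 25 of the 30 genes, with a median of -0.22, while 53.4% of all tested probes were below 0 and their median was -0.02. These 30 genes are measured on the same 12 arrays and do not vary independently. By array, the median deviation of the 30 genes from their ad lib means was -0.44 on food removed replicate 3, -0.25 to -0.11 on the other 5 arrays labelled food removed, and -0.16 to 0.18 on the arrays labelled ad lib. Between 19 and 27 of the 30 genes lay below the ad lib mean on an array labelled food removed, against 6 to 22 on an array labelled ad lib.

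**Figure D1:**
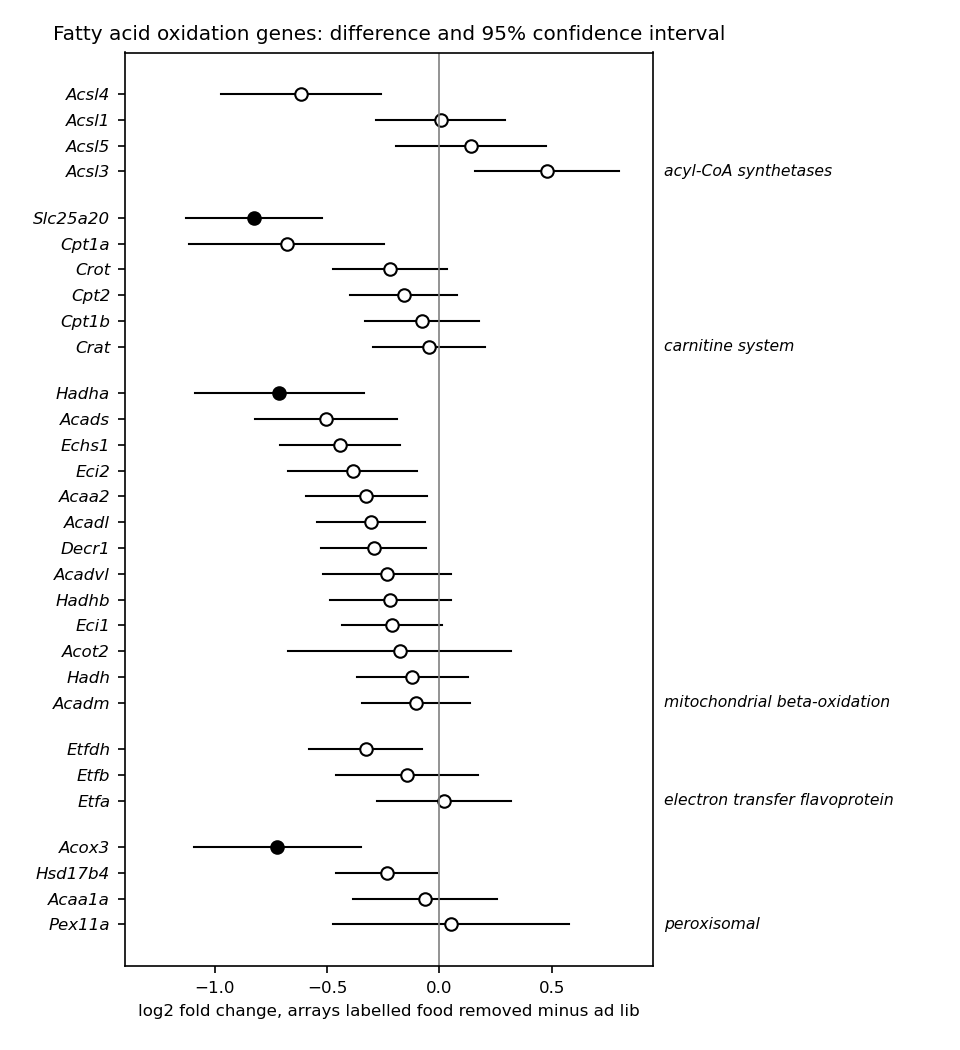
Log2 fold change (arrays labelled food removed minus ad lib, horizontal axis) of the 30 tested genes by role, with bars for limma's 95% confidence interval; filled circles mark an adjusted p under 0.05. The 3 filled circles are Slc25a20, Hadha and Acox3, and all 13 genes of mitochondrial β-oxidation lie to the left of 0.

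**Figure D2:**
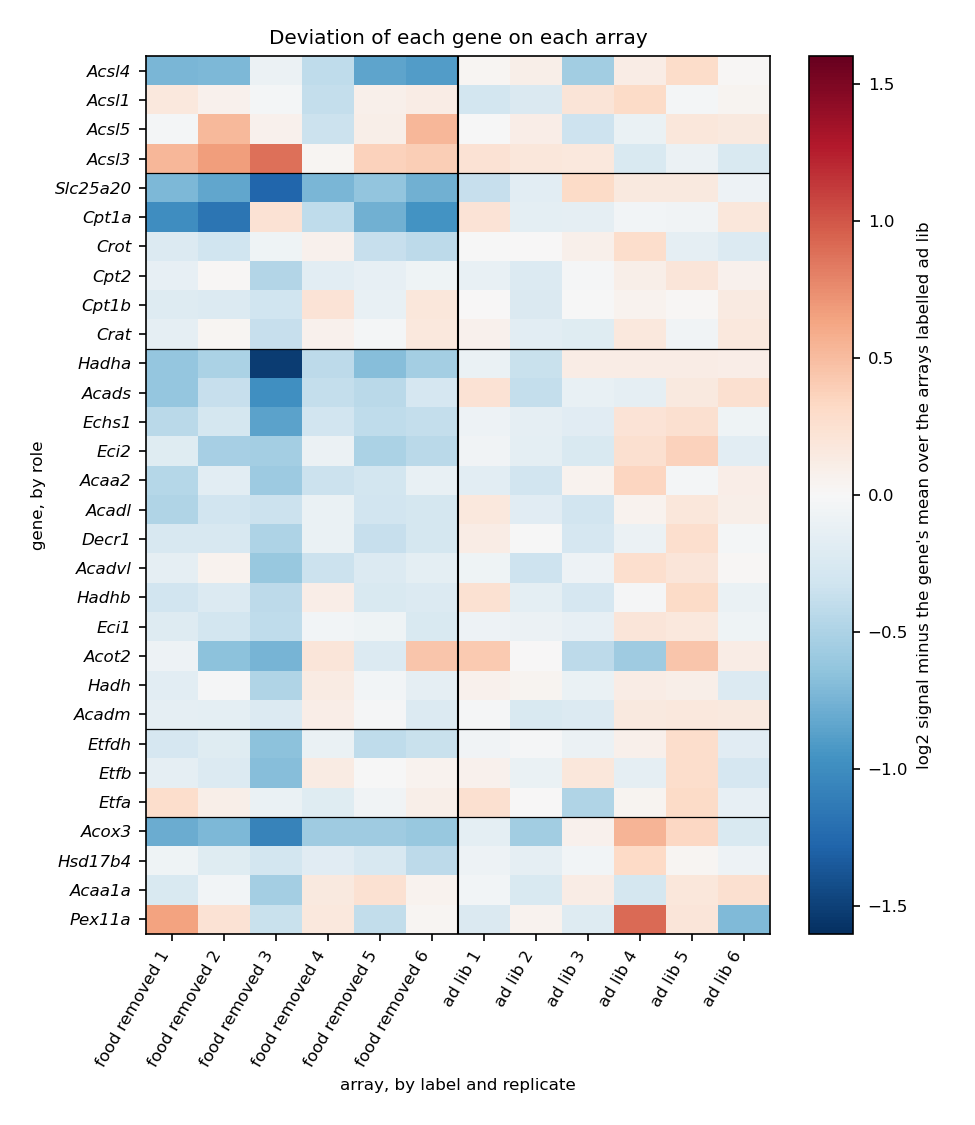
Deviation of each gene (down the side, by role) on each of the 12 arrays (across) from the gene's mean over the 6 arrays labelled ad lib, on the log2 scale. Blue prevails on the 6 arrays labelled food removed, most deeply on food removed replicate 3, while Cpt1a on that array runs the other way.

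The promoters of the 3 called genes are shown with that of Acadvl, the very long chain acyl-CoA dehydrogenase, because it holds the closest match found in the list to the repeat that PPARs and retinoid X receptors bind. The sequences are RefSeq's, assembly GRCr8, 250 bases before to 50 bases after the start, which was found for 29 of the 33 genes, and no entry was found for Cpt1b, Acadl, Decr1 and Acaa2. Positions count from the start as 1. That repeat, AGGTCA followed by any base and AGGTCA again, was searched on both strands by comparing 12 letters, and so was the cyclic AMP response element TGACGTCA. Slc25a20 (chr8:118243323-118243622, plus strand) has its best match to the repeat at 16 to 28, with 10 of 12 letters. Hadha (chr6:31907551-31907850, plus strand) has one of 9 letters at -195 to -183. Acox3 (chr14:79400832-79401131, minus strand) holds TGACGTCA at -7 to 1, across the start used, where its best match to the repeat (8 letters, -12 to 1) overlaps it. That start lies inside the gene, whose annotated range is 79358604 to 79405160. Starts inside the annotated gene were also used for others, such as Acsl1, Crot and Eci2. Acadvl (chr10:55236656-55236955, minus strand) has a match of 11 letters at -17 to -5. The capitals mark these stretches.
Slc25a20: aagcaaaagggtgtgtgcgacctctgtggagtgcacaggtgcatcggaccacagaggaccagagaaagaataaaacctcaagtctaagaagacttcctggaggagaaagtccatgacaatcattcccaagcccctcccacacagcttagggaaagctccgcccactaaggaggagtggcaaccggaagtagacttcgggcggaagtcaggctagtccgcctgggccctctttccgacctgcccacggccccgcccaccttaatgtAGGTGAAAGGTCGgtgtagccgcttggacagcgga
Hadha: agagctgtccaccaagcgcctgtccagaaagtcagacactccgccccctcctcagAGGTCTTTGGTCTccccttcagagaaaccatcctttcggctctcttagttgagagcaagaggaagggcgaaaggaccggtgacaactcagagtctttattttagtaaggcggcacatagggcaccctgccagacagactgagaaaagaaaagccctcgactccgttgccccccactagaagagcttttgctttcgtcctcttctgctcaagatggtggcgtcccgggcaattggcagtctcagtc
Acox3: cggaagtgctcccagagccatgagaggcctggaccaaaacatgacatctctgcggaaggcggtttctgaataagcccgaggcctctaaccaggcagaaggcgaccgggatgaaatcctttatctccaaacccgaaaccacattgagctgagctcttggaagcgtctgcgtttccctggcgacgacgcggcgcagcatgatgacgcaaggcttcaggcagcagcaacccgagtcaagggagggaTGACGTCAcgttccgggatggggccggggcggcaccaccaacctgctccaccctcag
Acadvl: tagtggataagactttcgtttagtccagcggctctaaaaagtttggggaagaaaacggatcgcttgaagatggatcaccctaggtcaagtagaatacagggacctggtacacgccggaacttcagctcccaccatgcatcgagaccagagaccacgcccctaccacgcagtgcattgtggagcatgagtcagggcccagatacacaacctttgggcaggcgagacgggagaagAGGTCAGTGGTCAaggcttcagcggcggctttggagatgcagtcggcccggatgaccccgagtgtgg

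At 10 or more matching letters the repeat was found in 5 of the 29 promoters (Crat, Slc25a20, Acadvl, Echs1 and Etfa), and in 3.77% of 33469 rat promoters of the same length. At 9 letters or more it was found in 11 of 29 and in 24.9% of all promoters, and at 11 or more in Acadvl alone and in 0.439%. The 11 include both Hadha and Hadhb, whose overlapping windows hold the same match. TGACGTCA was found in the promoters of Acox3 and Acadm, 2 of 29, and in 1.83% of all. The fold changes of the 5 genes ran from -0.82 (Slc25a20) through -0.44 (Echs1), -0.23 (Acadvl) and -0.05 (Crat) to 0.02 (Etfa). Fold changes of the genes with the weakest best match, 7 letters, also lay on both sides of 0. They were -0.62 (Acsl4), -0.33 (Etfdh), -0.22 (Crot), -0.11 (Acadm), 0.01 (Acsl1), 0.05 (Pex11a), 0.14 (Acsl5) and 0.48 (Acsl3). A match of letters is a description and does not show that a factor binds there.

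The acyl-CoA synthetases gave signals in both directions. Of 4 tested genes 0 passed, and their median log2 fold change was 0.07. Acsl4, which prefers arachidonic acid, lay between 8.62 and 9.43 (median 8.80) in the arrays labelled food removed and between 8.97 and 9.81 (median 9.59) in those labelled ad lib. The groups overlapped only through ad lib replicate 3, whose 8.97 lay below food removed replicates 3 and 4. Its log2 fold change was -0.62 (SE 0.17, adjusted p = 0.0699 from limma, exact permutation p = 0.0108), and it passed without food removed replicate 3 (-0.72, adjusted p = 0.0210) and without ad lib replicate 3 (-0.73, adjusted p = 0.0280).

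Acsl3, a synthetase of the endoplasmic reticulum and lipid droplets, had the highest fold change of the 30 genes. It lay between 8.71 and 9.57 (median 9.14) in the arrays labelled food removed and between 8.43 and 8.92 (median 8.72) in those labelled ad lib. The groups overlapped through food removed replicate 4, and the log2 fold change was 0.48 (SE 0.15, adjusted p = 0.117 from limma, exact permutation p = 0.0152). Without that array it was 0.56 and passed (adjusted p = 0.0397). Acsl1, the main synthetase of adipocytes, had a log2 fold change of 0.01 (95% CI -0.28 to 0.29), and Acsl5 one of 0.14 (-0.19 to 0.48). Raw signals of Acsl1 were 19322 to 25380, near the top of the scale, since the brightest probe of an array read 27424 to 37878. Acsl6, known from brain and muscle, was detected on 5 arrays and was not tested.

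In the carnitine system 1 of 6 genes, Slc25a20, was lower, and all 6 had log2 fold changes below 0 (median -0.19). Slc25a20 lay between 7.40 and 8.04 (median 7.93) in the arrays labelled food removed and between 8.31 and 8.98 (median 8.71) in those labelled ad lib. No array of one group reached the range of the other, and the lowest array, food removed replicate 3, stood clear of the rest of its group, which began at 7.85. The log2 fold change was -0.82 (SE 0.14, adjusted p = 0.00727 from limma), a 1.77-fold higher signal in the arrays labelled ad lib, and the exact permutation p of 0.00216 is the smallest that 6 against 6 arrays allow. It passed in all 12 fits that left out 1 array (adjusted p 0.00732 to 0.0240), but not with chip position as a covariate (-0.66, adjusted p = 0.199).

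Cpt1a, the outer-membrane carnitine palmitoyltransferase that controls entry of long chains, turned on a single array. It lay between 9.002 and 10.40 (median 9.31) in the arrays labelled food removed and between 10.01 and 10.39 (median 10.12) in those labelled ad lib. The value of 10.40 was that of food removed replicate 3, the highest of all 12, and the other 5 arrays of its group ended at 9.76, below every array labelled ad lib. With all arrays the log2 fold change was -0.68 (SE 0.20, adjusted p = 0.102 from limma, exact permutation p = 0.0260). Without that array it was -0.87 (SE 0.14, adjusted p = 0.00676), and without the 4 arrays highest in epididymal markers it was -1.02 (adjusted p = 0.00189).

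The remaining carnitine genes did not pass. Cpt2, the inner-membrane partner of Cpt1a, had a log2 fold change of -0.16 (95% CI -0.40 to 0.08), and Crot, which makes carnitine esters of medium chains in peroxisomes, had -0.22 (-0.48 to 0.03). Cpt1b, the muscle form, had -0.08 (-0.33 to 0.18), and Crat, which works on acetyl and other short chains, had -0.05 (-0.29 to 0.20). The sign of Crat turned to 0.02 without food removed replicate 3. A second probe of Crat was detected on 0 arrays.

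**Figure D3:**
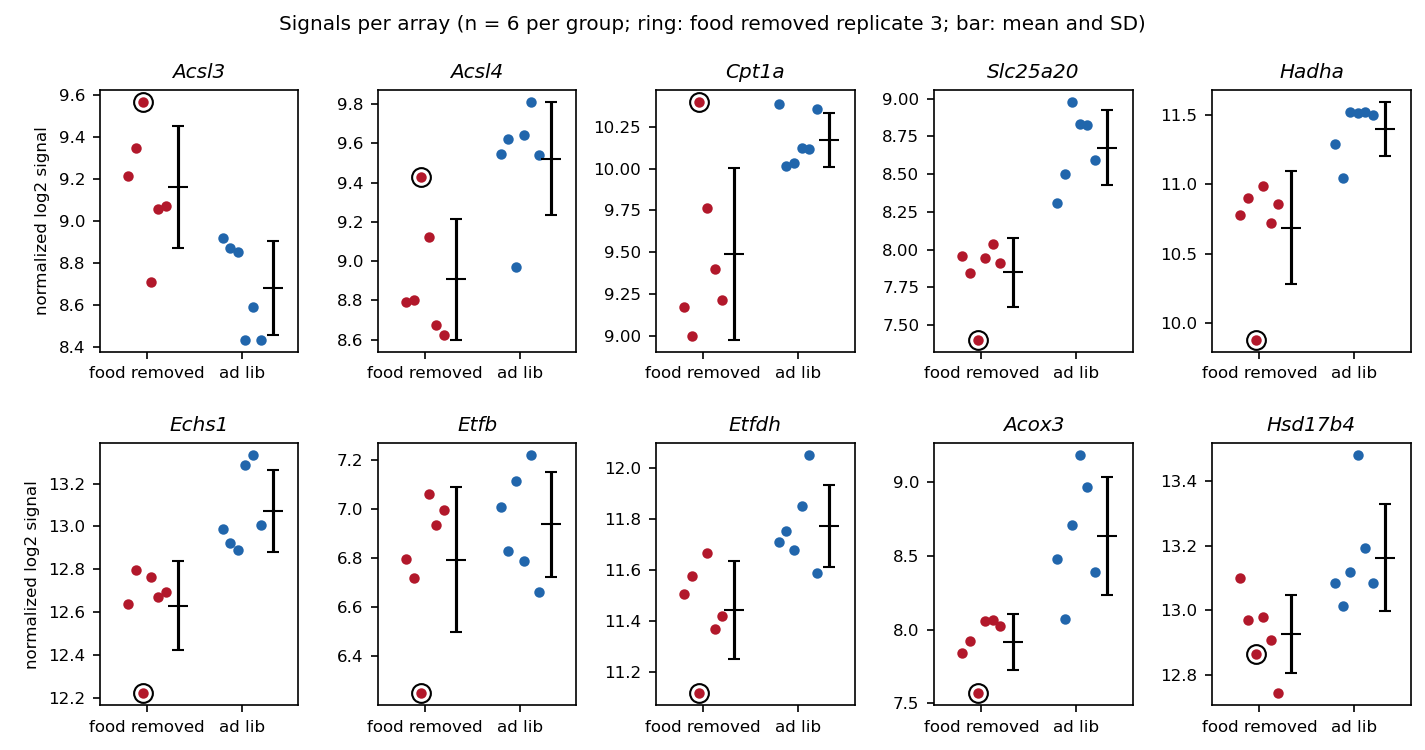
Normalized log2 signal on each array (points, n = 6 per group) for 10 genes, with the mean and SD as a bar beside each group and a ring around food removed replicate 3. The groups do not overlap for Slc25a20, Hadha, Echs1 and Acox3, and the ringed array lies highest in its group for Cpt1a, Acsl3 and Acsl4 and lowest for Slc25a20, Hadha, Echs1, Etfb, Etfdh and Acox3.

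Mitochondrial β-oxidation had 1 of 13 tested genes lower, Hadha. All 13 fold changes were below 0, from -0.71 to -0.11 with a median of -0.29, and 7 had an unadjusted p under 0.05. Hadha, which carries the hydratase and long-chain hydroxyacyl-CoA dehydrogenase activities of the trifunctional protein, lay between 9.88 and 10.99 (median 10.82) in the arrays labelled food removed and between 11.04 and 11.52 (median 11.51) in those labelled ad lib. The groups were separate, and food removed replicate 3 lay far below the other 5 arrays of its group, which began at 10.72. The log2 fold change was -0.71 (SE 0.18, adjusted p = 0.0480 from limma, exact permutation p = 0.00216), which is a 1.64-fold higher signal in the arrays labelled ad lib. Without food removed replicate 3 it was -0.55 (adjusted p = 0.0213), and it also passed without food removed replicate 4 or ad lib replicate 2. In the other 9 of the 12 fits without 1 array it did not (adjusted p 0.0731 to 0.115).

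Hadhb, the thiolase-bearing β-subunit of the same protein, had a log2 fold change of -0.22 (95% CI -0.49 to 0.05) and did not pass. The starts of the pair lie 301 bases apart on chromosome 6, pointing away from each other, and their promoter windows share 200 bases, the match to the repeat included. Within each array the difference between the 2 signals shifted by -0.50 between the groups (-0.37 without food removed replicate 3), with overlapping groups. The probes differ in brightness, with raw signals of 10311 to 27081 for Hadhb and 1008 to 4034 for Hadha. The part of brightness in the shift was not tested. This pair was picked after its values were seen, and the difference was not tested.

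Echs1, the short-chain enoyl-CoA hydratase, lay between 12.22 and 12.79 (median 12.68) in the arrays labelled food removed and between 12.89 and 13.33 (median 12.997) in those labelled ad lib. Its groups did not overlap, yet it did not pass over all probes (log2 fold change -0.44, SE 0.12, adjusted p = 0.0850 from limma, exact permutation p = 0.00216). Without food removed replicate 3, the lowest array, the value was -0.36 (adjusted p = 0.120). Echs1 passed narrowly in limma fits with trend and robust (adjusted p = 0.0448) and with array weights (-0.38, adjusted p = 0.0367).

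The acyl-CoA dehydrogenases, which open each turn of the cycle and differ in the chain length they accept, were ordered Acads (short, -0.50), Acadl (long, -0.30), Acadvl (very long, -0.23) and Acadm (medium, -0.11). Their 95% confidence intervals overlapped (-0.82 to -0.19, -0.54 to -0.06, -0.52 to 0.05 and -0.35 to 0.14), and 0 of 4 passed. Adjusted p was 0.0947 for Acads and 0.184 for Acadl from limma. Among the enzymes that handle double bonds, Eci2 had -0.38, Decr1 -0.29 and Eci1 -0.21 on the log2 scale, and none passed. All 6 arrays labelled food removed lay below the ad lib mean for each of them, but the share of all tested probes for which this held was not counted. Acaa2, the thiolase of shorter chains, had -0.32, Acot2, a mitochondrial thioesterase that releases fatty acids from CoA, -0.18, and Hadh, the short-chain hydroxyacyl-CoA dehydrogenase, -0.12. Acot2 was among the dimmer probes, with raw signals of 108 to 309, and its interval ran from -0.67 to 0.32.

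Electron transfer flavoprotein had 0 of 3 genes past the threshold and a median log2 fold change of -0.14. Etfdh, the oxidoreductase that hands its electrons to ubiquinone, lay between 11.12 and 11.66 (median 11.46) in the arrays labelled food removed and between 11.59 and 12.05 (median 11.73) in those labelled ad lib. A single array of each group overlapped, food removed replicate 4 and ad lib replicate 6. The log2 fold change was -0.33 (SE 0.12, adjusted p = 0.168 from limma, exact permutation p = 0.00433). Etfb, the β-subunit, lay between 6.25 and 7.06 (median 6.86) and between 6.66 and 7.22 (median 6.92), with a log2 fold change of -0.14 (SE 0.15, adjusted p = 0.699 from limma), and the groups overlapped over most of their range. Etfa, the α-subunit, had 0.02 (95% CI -0.28 to 0.32).

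Of the peroxisomal genes, 4 of 6 were tested and 1, Acox3, was lower (median of the 4 log2 fold changes -0.15). Acox3 lay between 7.57 and 8.06 (median 7.97) in the arrays labelled food removed and between 8.08 and 9.18 (median 8.60) in those labelled ad lib. The groups were separate, but by a narrow margin, and the ad lib arrays were spread more widely (SD 0.40 against 0.19). The log2 fold change was -0.72 (SE 0.17, adjusted p = 0.0427 from limma, exact permutation p = 0.00216), a 1.65-fold higher signal in the arrays labelled ad lib. Without 1 array it passed only where food removed replicate 4, ad lib replicate 2 or ad lib replicate 6 was left out. In the other 9 of 12 fits the adjusted p was 0.0639 to 0.111, and the log2 fold change was -0.61 to -0.83 over the 12.

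Hsd17b4, the bifunctional enzyme that takes branched and very long chains through the middle of the peroxisomal cycle, lay between 12.75 and 13.10 (median 12.94) in the arrays labelled food removed and between 13.02 and 13.48 (median 13.10) in those labelled ad lib. All 6 arrays of the first group lay below the ad lib mean, which was not counted over all tested probes. The log2 fold change was -0.23 (SE 0.11, adjusted p = 0.296 from limma, exact permutation p = 0.00866). Acaa1a, the peroxisomal thiolase, had -0.06 (95% CI -0.38 to 0.26) and Pex11a, which acts in peroxisome division, 0.05 (-0.47 to 0.58). Acox2, the oxidase of bile acid intermediates, was detected on 0 arrays, and Ehhadh, the other bifunctional enzyme, was not represented by a probe with its symbol.

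**Figure D4:**
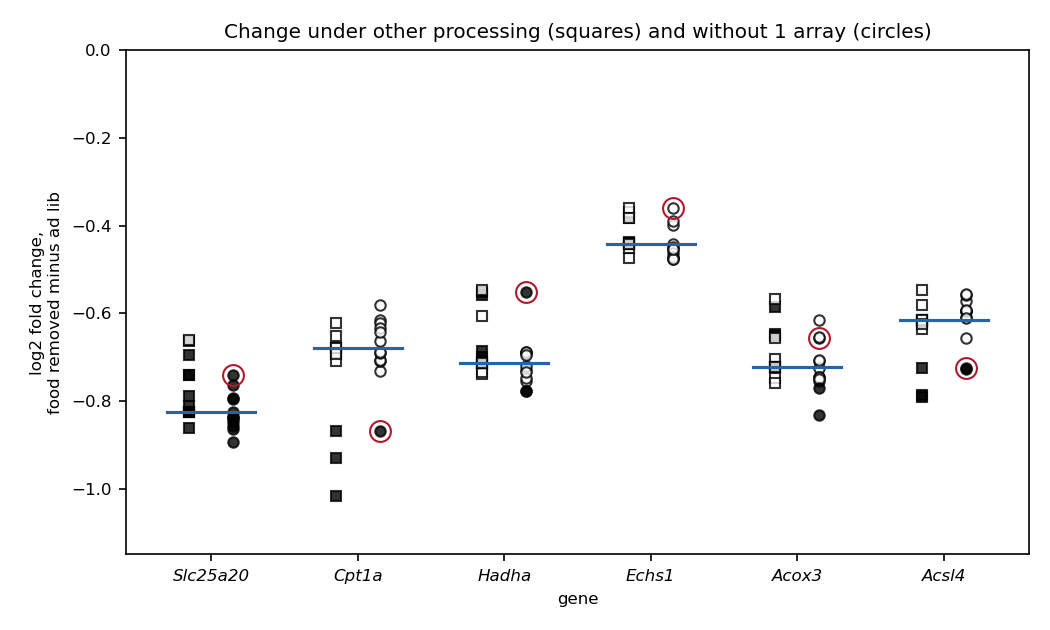
Log2 fold change of 6 genes (vertical axis) under other processing or without the arrays highest in epididymal markers (squares) and without each of the 12 arrays in turn (circles); filled symbols have an adjusted p under 0.05, the blue line is the value with all arrays and the red ring marks the fit without food removed replicate 3. Slc25a20 is filled in all 12 circles, whereas Cpt1a is filled only in the ringed circle.

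Position on the chip and group nearly coincided, with the arrays labelled food removed at positions 1 and 3 to 7 and those labelled ad lib at 2 and 8 to 12. With position as a covariate, 0 of the 30 genes passed. The array that breaks the order is ad lib replicate 1 at position 2, between arrays of the other group. Its signals were 8.31 for Slc25a20, 11.29 for Hadha and 8.48 for Acox3. They lay above all 6 arrays labelled food removed, as they must where the groups do not overlap. They also lay below the ad lib medians of 8.71, 11.51 and 8.60, and 8.31 was the lowest ad lib value for Slc25a20. Ad lib replicate 1 lay above all 6 arrays labelled food removed for 11 of the 30 genes and for 16.6% of all tested probes. Position and label cannot be told apart on these arrays.

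Further genes of the pathway were counted on a list of 105, of which 81 had a probe and 74 were tested. Of these 3 were lower and 0 were higher, with a median log2 fold change of -0.12 and 48 of 74 below 0, beside 1.42% lower, 1.05% higher, a median of -0.02 and 53.4% below 0 over all tested probes. Rxrg, the retinoid X receptor γ that pairs with PPARs, lay between 10.20 and 11.76 (median 11.04) in the arrays labelled food removed and between 12.20 and 12.99 (median 12.52) in those labelled ad lib. The groups were clearly apart, with a log2 fold change of -1.54 (SE 0.22, adjusted p = 0.00278 from limma). Ech1, an isomerase of dienoyl-CoA in mitochondria and peroxisomes, had -0.63 (SE 0.11, adjusted p = 0.010), and Pex3, a membrane receptor of peroxisome assembly, had -0.58 (SE 0.12, adjusted p = 0.0241), each with groups that met at their edges. Pex3 did not pass without food removed replicate 1, 2, 5 or 6 or without ad lib replicate 1 or 5 (adjusted p up to 0.0713).

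The 3 genes next in order of p did not pass. Acad10, an acyl-CoA dehydrogenase family member, had a log2 fold change of -0.90 (adjusted p = 0.0970 from limma), Pex13, of the peroxisomal import machinery, had -0.40 (adjusted p = 0.111), and Prkaa1, a catalytic subunit of AMP-activated protein kinase, had -0.48 (adjusted p = 0.162). By group of roles, the medians were -0.18 over 16 further mitochondrial acyl-CoA enzymes, -0.19 over 17 further peroxisomal enzymes and carriers, -0.04 over 12 genes of peroxisome assembly, -0.09 over 15 PPAR and PGC-1 regulators, 0.10 over 8 further genes of acyl-CoA activation and thioesterases and 0.13 over 6 genes of carnitine supply and malonyl-CoA. No difference between these groups of genes was tested.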

How the data were processed

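RNA of 12 rats was hybridised to 12 arrays, grouped by the sample labels into 6 food removed and 6 ad lib. The authors deposited raw probe intensity values, not normalized, with a detection p-value per probe computed against negative controls, and a second table of their normalized intensities. The submitters' processing notes name GenomeStudio, with no version. From the raw intensities, neqc of limma 3.58.1 (R 4.3.3, offset 16) gave background-corrected, quantile-normalized log2 values. Background correction and offset set the size of a dim probe's fold change, and the filter sets how many p-values are adjusted. Probes detected at p under 0.05 on at least 6 arrays entered lmFit and eBayes with group as the only term. Illumina's cubic spline was not run here.

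The platform annotation of 2016 gave 1 symbol to 13793 probes, and 8730 had none. A gene with several probes is represented by the brightest. Single values were also compared with the two-sided exact permutation test. The genes and lists were chosen with earlier results of these data known. Full values are given for genes that passed and for the 2 smallest p-values in each role, and of the further pathway genes for those that passed and the next 3. Arrays hold no count of molecules, so their number limits the precision. Each oxidation probe was read on 22 to 64 beads per array (median 44), and the standard error over beads was 2.18 to 7.93% of the raw signal (median 3.56%).

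Alternatives, of which the last was chosen after seeing the data, were no background correction, a median shift, the authors' normalized values floored at 16, an offset of 50, other filters, the methods' t-test, eBayes with trend and robust, chip position as a covariate, array weights, a block by replicate number, an adjusted p under 0.01, every probe of a gene, leaving out each array, and leaving out arrays with epididymal markers by rule or as the highest 4.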

Additional observations from a re-analysis of the deposited data

Results flagged for a closer look

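Among 60 pairs of a tested gene and a group, 5 had an array that lay farther from the others than Dixon's critical value for 6 values allows, and chance gives about 1 in 20. Of these, 3 were on food removed replicate 3, the array highest in epididymal markers, and each was the lowest of its group, with Slc25a20 at 7.40, Hadha at 9.88 and Echs1 at 12.22. Without that array the log2 fold changes were -0.74, -0.55 and -0.36. Acsl1 was at 13.92 on food removed replicate 4, below the next array at 14.27, and Acsl4 was at 8.97 on ad lib replicate 3, below the next at 9.54. Without ad lib replicate 3, Acsl4 passed (log2 fold change -0.73, adjusted p = 0.0280 from limma).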

How the results depend on the processing

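Slc25a20 was called lower under every alternative run except chip position as a covariate, where the count of called genes fell from 3 to 0, over all probes 20 were lower and 12 higher, and of the further pathway genes 0 were lower. It was the only gene called (1 lower) with a median shift, the authors' normalized values, no filter, the methods' t-test after Benjamini-Hochberg and an adjusted p under 0.01. The median shift gave 49 lower and 54 higher probes in place of 173 and 128, and 1 further pathway gene lower, and the stricter threshold gave 52 and 46. Array weights gave 10 genes lower, with 474 probes lower and 366 higher, and the methods' t-test at an unadjusted p under 0.05 gave 14 lower and 1 higher, 17 further pathway genes lower, and 1133 and 776 probes. Leaving out 1 array gave 1 to 4 genes lower, 0 to 1 higher (Acsl3 without food removed replicate 4), 2 to 4 further pathway genes lower, and over all probes 84 to 312 lower and 72 to 176 higher. Both ends for lower probes came from ad lib replicate 5 and food removed replicate 4. With trend and robust, 4 genes were lower, Echs1 among them. The median over the 30 genes stayed between -0.25 and -0.17 under all alternatives. The cause of these shifts was not tested.

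The replicate numbers did not pair the rats. Correlations of same-numbered arrays were -0.41 to 0.13, and 0 of 6 correlated best with its own number. With the replicate block 1 gene (Slc25a20) was lower, and 94 probes were lower and 84 higher.

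Fold changes near 0 changed sign. With chip position as a covariate this was so for Cpt1b (0.0341), Crat (0.0161), Etfa (-0.10), Acaa1a (0.0941) and Pex11a (-0.0492). A median shift turned Etfa (-0.00853), the authors' values Acsl1 (-0.0309), and array weights Crat (0.0284) and Etfa (-0.0441). Without the array past the epididymal rule, food removed replicate 3, Crat was 0.0191 and Acaa1a 0.0317, and without the 4 highest arrays Crat was 0.0539. Over the fits without 1 array, Acsl1 ran from -0.0566 to 0.0899, Etfa from -0.0755 to 0.0821, Pex11a from -0.0902 to 0.23, Crat from -0.0890 to 0.0191 and Acaa1a from -0.12 to 0.0317.

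The limits are 6 arrays a group on a single chip, position and label nearly coinciding, and labels whose direction opposes the study's. Others are 1 array rich in epididymal RNA, further arrays with single epididymal markers raised, and dim probes such as Etfb and Acot2, where background sets much of the signal. The called genes Slc25a20 and Acox3 were also fairly dim, with raw signals of 254 to 604 and 269 to 667. Without background correction their log2 fold changes were -0.66 and -0.59, and both passed.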

Other observations

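Of the 74 further pathway genes that were tested, 3 varied between arrays by more than 3 log2 units, and their spread cut across the labels. Pxmp4, a peroxisomal membrane protein, was at 6.07 to 7.05 on 5 arrays (food removed replicates 1, 2 and 6 and ad lib replicates 2 and 3) and at 10.02 to 11.49 on the other 7, with a log2 fold change of -0.55 (SE 1.12, adjusted p = 0.870 from limma). Acot1, a cytosolic acyl-CoA thioesterase, ran from 4.67 to 10.23, with 0.98 (SE 0.81, adjusted p = 0.612). It was 10.23, 7.70 and 7.35 on food removed replicates 3, 4 and 5, 7.66 on ad lib replicate 6 and at most 5.96 elsewhere. Those are the 4 arrays highest in epididymal markers. Ephx2, the soluble epoxide hydrolase, ran from 8.34 to 11.42, with -0.43 (SE 0.54, adjusted p = 0.763). Acsbg1, an acyl-CoA synthetase that was detected on 5 arrays and not tested, ran from 4.45 to 11.85, with 11.85, 11.55 and 11.59 on food removed replicates 3 and 5 and ad lib replicate 6 and at most 6.23 on the other 9. The epididymal marker Lcn5 also had its highest signals on food removed replicates 3 and 5 and ad lib replicate 6. The part of epididymal RNA in Acot1 and Acsbg1 was not tested. The widest of the 30 genes, Hadha, spanned 1.65 log2 units and the narrowest, Acadm, 0.41. The further genes were picked for their range after their values were seen.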
